A study of Bos taurus with 20 samples.

Results

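Gene expression was compared in fresh neck muscle of cattle (Bos taurus) that had or had not received dexamethasone together with estradiol. The comparison holds 10 of the 20 arrays of the series, namely those whose titles give storage day 0, and no measured value entered their choice. The 5 control animals (K3, K6, K8, K9 and K10) were untreated. The 5 treated animals (DE27, DE29, DE30, DE31 and DE32) were fed 0.4 mg of dexamethasone a day each over 31 days and were injected with 5 mg of estradiol into muscle weekly, 6 times in all. Both hormones were given to every treated animal, so their effects cannot be told apart. Muscle was collected at the slaughterhouse and each array holds RNA of 1 animal. The other 10 arrays hold muscle of the same animals after 14 days under vacuum at 4 °C and are used only where storage is named. The labels give no sex, age, breed or interval between the last dose and slaughter.

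Dexamethasone is a synthetic glucocorticoid that enters cells and binds the glucocorticoid receptor, which then acts on DNA as a transcription factor. Among its known targets in muscle are FKBP5, PER1, KLF15 and the wasting genes FBXO32 and TRIM63, and it is known for restraining inflammation and for lowering the release of the animal's own cortisol. Estradiol acts through the oestrogen receptors, is used as a growth promoter in cattle and is also known to act on lipid metabolism and blood vessels. Muscle is a mixed tissue: fibres give most of its RNA, and vessels, connective tissue, fat, nerve, satellite cells (the stem cells of muscle) and immune cells give the rest. In such bulk samples, fewer cells of a type and less RNA per cell cannot be told apart.

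Before scaling, the arrays' 75th percentile averaged 808 ± 112 (SD, n = 5) for control muscle and 823 ± 98.9 for treated muscle, and 3 measures of array signal did not differ (two-sided exact permutation p = 0.825, 0.937 and 0.373, adjusted p = 0.937 for each; the smallest p possible is 0.00794). All levels below are log2 processed signal, with every array set to the same 75th percentile, and all differences are treated minus control on that log2 scale. The 10 arrays did not lie on 1 slide. K3, K6 and DE29 shared slide 1, K8, K9, DE30 and DE31 shared slide 3, DE32 lay on slide 5, and K10 and DE27 shared slide 6. Slides 5 and 6 come from a separate run of slide serial numbers, and their 3 arrays stood apart from the other 7 on the first principal component (30.6% of the variance), most of all DE27. The second component (19.1%) held the 5 control animals on one side and the 5 treated animals on the other. Although 19 probes differed by over 2 log2 units between these sets of slides, 0 of them passed the test of treatment. Each set holds control and treated animals, so such a probe varies widely within both groups and could hardly pass. The 0 therefore does not show that the slides left the called probes untouched. Counts are given with and without the 3 arrays of slides 5 and 6.

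**Figure D1:**
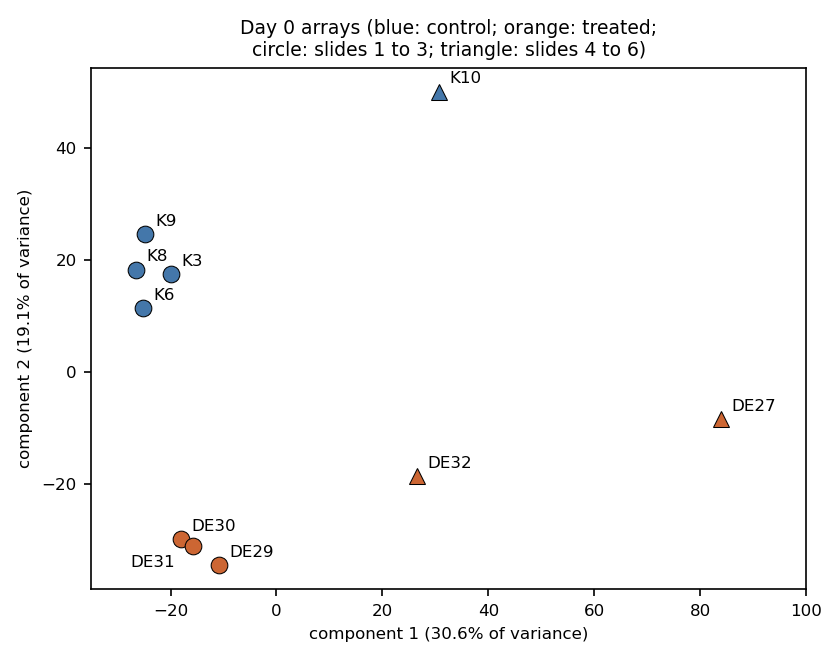
Principal components of the 10 day 0 arrays over the tested probes: the horizontal axis is component 1 and the vertical axis component 2, both as scores with the share of variance, with circles for slides 1 to 3, triangles for slides 5 and 6, and colour for treatment. DE27, K10 and DE32 lie to the right at component 1 scores of 84, 31 and 26, and all 5 treated animals lie below all 5 control animals on component 2.

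Of 15438 probes tested, 378 (2.45%) differed between treated and control animals at an adjusted p under 0.05 (limma, Benjamini-Hochberg over all tested probes). In treated animals 204 probes (1.32%) were higher and 174 (1.13%) were lower. With each gene represented by its brightest probe, 149 of 11406 genes were higher (1.31%) and 124 were lower (1.09%), or 2.39% together. Of the 11406 genes, 158 are known only by a LOC number. The remaining probes that passed have no gene name or are further probes of a gene. In 5.96% of all genes the 5 treated animals lay entirely on one side of the 5 control animals (3.13% above and 2.83% below). Of the 378 probes that passed, 352 did so. A lack of overlap in a gene that passed is therefore no further support for its call. Among the probes that passed, the median size of the difference was 1.07 log2 units. A 2-fold change was reached by 113 of the 204 higher and 105 of the 174 lower probes, and a 4-fold change by 19 and 16. The median difference over all genes was 0.001, and the lower and upper quartiles were -0.22 and 0.21. Among the 34 further tested probes of called genes, 12 passed the test themselves, 22 did not, and 34 pointed the same way as the called probe. The count fell to 217 without slide 6 (K10 and DE27) and to 100 without K10, DE27 and DE32. With the set of slides as a block it was 534, of which 366 were among the 378. Without single animals it ranged from 135 (K9 left out) to 311 (DE27 left out), and it also moved by more than 1.5 times without K8 (212), K10 (234), DE29 (180), DE31 (216) or DE32 (244). Of the 74 named genes below that passed, 22 did not with slides as blocks, 30 did not without slide 6 and 50 did not without K10, DE27 and DE32. DE32 was alone on its slide, so it adds nothing to the difference in the fit with slides as blocks.

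**Figure D2:**
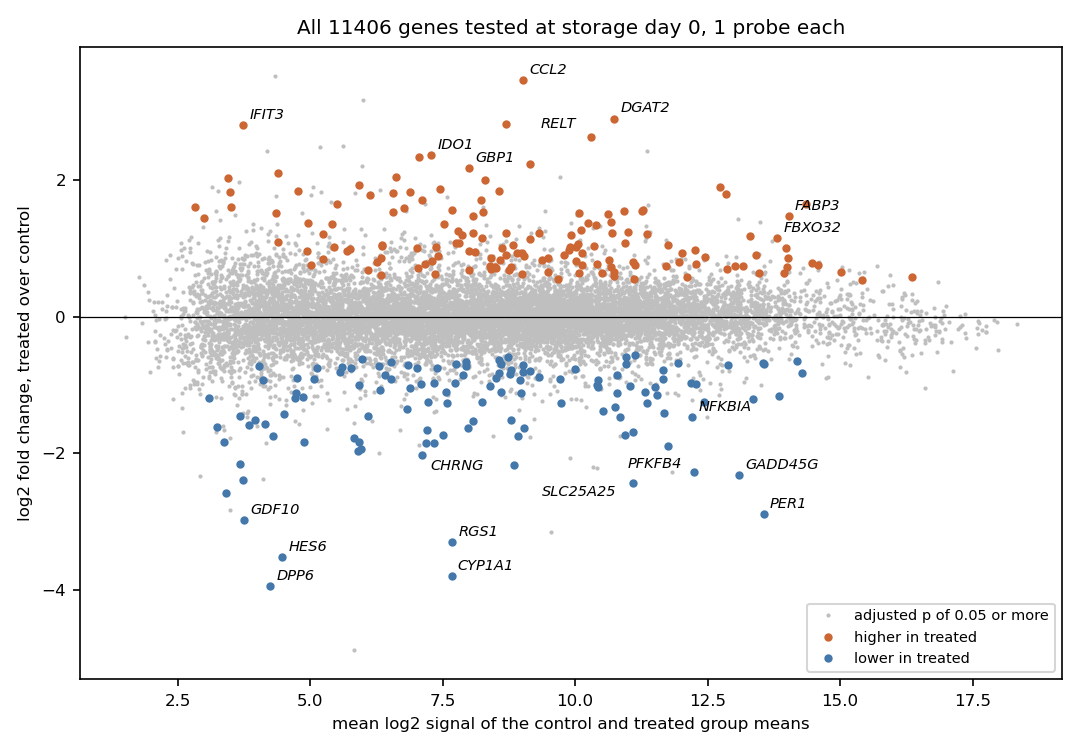
Difference between treated and control muscle at day 0 for 11406 genes: the horizontal axis is the mean log2 signal over the 10 arrays and the vertical axis the treated minus control difference in log2 units, with genes that passed the test coloured by direction. Of the coloured genes, 149 lie above 0 and 124 below, on both sides of a median of 0.001.

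The 12 genes with the largest increases included CCL2, DGAT2, METTL21E and RELT. CCL2, a chemokine that draws monocytes into tissue, had log2 signals of 8.89, 7.69, 6.00, 7.57 and 6.31 in K3, K6, K8, K9 and K10, and of 9.23, 11.20, 10.56, 11.23 and 11.56 in DE27, DE29, DE30, DE31 and DE32. All 5 treated animals lay above all 5 control animals, with the highest control animal, K3, close below the lowest treated one, DE27. The difference was 3.46 ± 0.58 (SE, n = 5 per group; 11-fold, limma adjusted p = 0.0157). Values per animal are given in this order of animals from here on.

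DGAT2, which catalyses the last step of triglyceride synthesis, measured 9.67, 8.71, 10.10, 9.0 and 8.92 in control and 12.23, 11.81, 12.73, 12 and 12.14 in treated animals. The groups were separated by more than the spread within either, and the difference was 2.90 ± 0.28 (7.47-fold, adjusted p = 0.00166). METTL21E, a methyltransferase of skeletal muscle, measured 8.26, 8.34, 7.64, 8.20 and 7.76 in control and 10.35, 9.97, 9.31, 11.18 and 10.55 in treated animals, without overlap. It was 4.71-fold higher (2.23 ± 0.31, adjusted p = 0.00824). RELT, a receptor of the tumour necrosis factor family, measured 9.88, 8.94, 9.41, 8.84 and 7.79 in control and 11.13, 12.74, 11.38, 11.82 and 10.98 in treated animals. Its groups did not overlap either, and it was 6.23-fold higher (2.64 ± 0.41, adjusted p = 0.0134).

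Among the other genes with the largest increases were RBP7, a retinol-binding protein (2.10 ± 0.24, adjusted p = 0.00267), the vesicle protein RAB26 (2.04 ± 0.29, adjusted p = 0.00857) and MINAR1 (2.03 ± 0.39, adjusted p = 0.0247). RBP7 and MINAR1 were well above background on 1 control array and on all 5 treated arrays, so that their control levels are uncertain, and neither passed under normexp background correction (0.62, adjusted p = 0.0653, and 0.43, adjusted p = 0.142). C10H15orf48 rose by 2.34 ± 0.45 (adjusted p = 0.0261), although K3 (7.60) lay above DE27 (7.54). DIO2, the deiodinase that activates thyroid hormone, measured 6.59, 6.81, 8.79, 7.36 and 6.97 in control and 9.80, 9.72, 9.36, 9.39 and 8.26 in treated animals. Its groups overlapped through K8 and DE32, and the difference was 2.0 ± 0.42 (adjusted p = 0.0353). DIO2 passed the test only without K8 or DE32 when 1 animal was left out, with adjusted p up to 0.0880. C10H15orf48 no longer passed without K8, K9, K10, DE29, DE30, DE31 or DE32 (adjusted p up to 0.0735), and MINAR1 without K8, K9, K10, DE29, DE30 or DE31 (up to 0.0589).

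The 12 genes with the largest decreases included DPP6, CYP1A1, HES6 and RGS1. DPP6, an accessory protein of potassium channels, measured 6.28, 7.91, 3.52, 6.69 and 6.72 in control and 1.65, 2.57, 2.52, 3.11 and 1.56 in treated animals. K8 was the low control animal. The fitted difference was -3.94 ± 0.68 (adjusted p = 0.0173; 0.0516 without K9), and no fold is given because DPP6 was well above background on only 1 of 5 treated arrays. Under normexp background correction the difference was -1.54 (adjusted p = 0.0443). DPP6 did not pass without slide 6, or without K10, DE27 and DE32. CYP1A1, the cytochrome P450 induced by the aryl hydrocarbon receptor, measured 9.96, 8.41, 10.16, 9.10 and 10.20 in control and 4.68, 7.58, 6.33, 4.03 and 6.25 in treated animals. The groups did not overlap, and it was 13.9-fold lower (-3.79 ± 0.63, adjusted p = 0.0155; 0.0586 without slide 6 and 0.0964 without K10, DE27 and DE32).

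HES6, a helix-loop-helix factor of myogenic and neural differentiation, measured 5.88, 5.91, 6.07, 6.06 and 7.26 in control animals and was not well above background in any treated animal. Where a gene was below background in a whole group, the fold is given as a lower bound, against the lowest signal well above background on each array or the probe's own signal if that was higher. On this scale HES6 was at least 6.57-fold lower (adjusted p = 0.00267). The same held for GDF10, a ligand of the BMP family (at least 3.32-fold lower, adjusted p = 0.0212), STXBP5L, a protein of vesicle release (at least 2.66-fold lower, adjusted p = 0.00782), and ARMC12 (at least 2.26-fold lower, adjusted p = 0.00125). At day 0 these genes were well above background on control arrays only, so only that group counted towards their being tested. Their adjusted p values belong to fitted differences that include treated signals not well above background, and do not test the bounds. GDF10 lost its call without K9 or DE31 (adjusted p up to 0.0548), without slide 6 (0.0652) and without K10, DE27 and DE32 (0.0980). Under normexp background correction, which raises dim signals by an offset, the differences were smaller than these bounds: -1.26 for HES6 (adjusted p = 0.00526), -0.61 for ARMC12 (0.0315), -0.88 for GDF10 (0.110) and -0.51 for STXBP5L (0.110). GDF10 and STXBP5L thus did not pass there.

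RGS1, which shortens signalling of G-protein-coupled receptors in immune cells, measured 9.40, 7.77, 9.76, 9.72 and 10.00 in control and 5.08, 5.80, 6.66, 6.91 and 5.72 in treated animals. K6 was the low control animal, the groups did not overlap, and RGS1 was 9.83-fold lower (-3.30 ± 0.46, adjusted p = 0.00824). RGS14 fell as well (-1.74 ± 0.29, adjusted p = 0.0155), while none of the other 24 regulators of G-protein signalling tested passed (2 of 26 lower, 0 higher, median -0.01). The mitochondrial carrier SLC25A25 fell by 2.43 (SE 0.50, adjusted p = 0.0319; -1.49 at its other probe, adjusted p = 0.00884) and the transcription factor ZNF750 by 2.17 (SE 0.41, adjusted p = 0.0243). SLC25A25 lost its call without K3, K6, K8, K9, DE30 or DE32 (adjusted p up to 0.0881), and ZNF750 without K9, DE29 or DE31 (up to 0.0692).

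**Figure D3:**
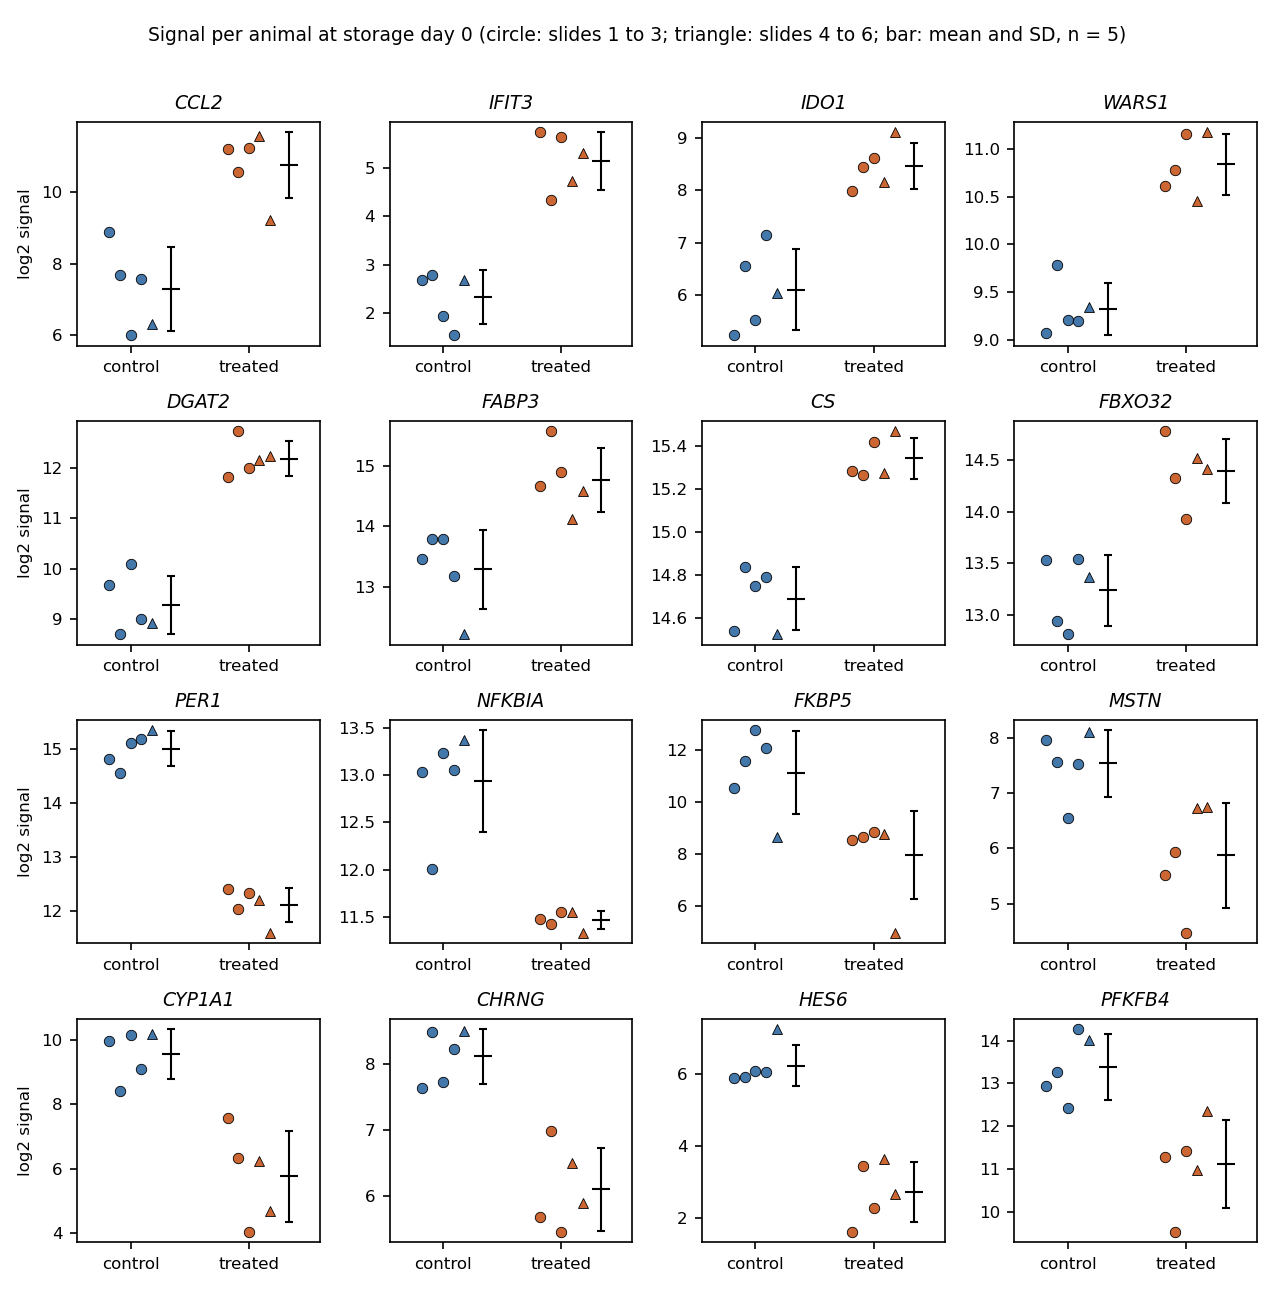
Log2 signal of 16 genes in each of the 10 animals at day 0: each point is 1 animal, circles stand for slides 1 to 3 and triangles for slides 5 and 6, and bars give the mean ± SD of 5 animals. PER1, NFKBIA, CYP1A1 and HES6 lie lower and CCL2, IFIT3, DGAT2 and FBXO32 higher in all 5 treated animals, while the groups overlap for FKBP5 and MSTN.

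Most of the genes that glucocorticoids are known to induce had lower levels in treated muscle. Of 29 tested, 24 had a negative difference, 6 fell, 2 rose, and the median was -0.70. Over all genes 49.8% had a difference of 0 or below, 50.2% were above 0, 1.09% fell, 1.31% rose, and the median was 0.001. Of the 15438 probes tested, 2668 had an unadjusted p under 0.05 (limma). The lists below are to be read against these shares, and no test of a list was made. Lists and members were chosen with earlier results of these data known. A share above that of all genes is therefore no independent support for a list. Nor is a separation of the groups by the mean of a list, which includes any members that passed on these same arrays. PER1, a clock gene with glucocorticoid response elements, measured 14.82, 14.55, 15.11, 15.19 and 15.35 in control and 11.59, 12.40, 12.04, 12.33 and 12.20 in treated animals. The groups were separated by over 2 log2 units, and the difference of -2.89 ± 0.20 (7.43-fold lower, adjusted p = 0.000294) had the smallest p among the named genes. NFKBIA, the inhibitor that holds NF-kB in the cytoplasm, measured 13.03, 12.01, 13.23, 13.05 and 13.37 in control and 11.33, 11.47, 11.43, 11.55 and 11.56 in treated animals. It was 2.77-fold lower without overlap (-1.47 ± 0.23, adjusted p = 0.0134).

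The other genes of this list that fell were the stress protein SESN1 (-1.42 ± 0.24, adjusted p = 0.0168; -0.59 under normexp background correction, 0.0117), the PI3-kinase regulator PIK3R1 (-1.25 ± 0.22, adjusted p = 0.0182), the transcription factor CEBPB (-1.10 ± 0.22, adjusted p = 0.0313) and CRISPLD2 (-1.47). The other probes of PIK3R1 (-0.54, adjusted p = 0.285, and -0.57, 0.117) and of CRISPLD2 (-0.75, 0.0817) did not pass. Those that rose were FBXO32 and the insulin receptor substrate IRS2 (1.01 ± 0.23, adjusted p = 0.0439). Without single animals the list kept between 4 and 6 lower and between 1 and 2 higher genes, and without K10, DE27 and DE32 it had 3 lower and 0 higher. PIK3R1 lost its call without K9 (adjusted p = 0.0527), CEBPB without each animal except K6 and DE31 (up to 0.0890), and IRS2 without each animal except K10 (up to 0.0943).

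FKBP5, the co-chaperone that glucocorticoids induce most readily in many tissues, measured 10.54, 11.56, 12.76, 12.07 and 8.66 in control and 4.97, 8.56, 8.66, 8.86 and 8.75 in treated animals. The groups overlapped only through K10, which lay at the level of most treated animals, and DE27 was far below the others. The difference of -3.16 ± 0.89 did not pass (adjusted p = 0.0925), but a fit with the slide as a block called it (-3.30, adjusted p = 0.00627), and it did without slide 6, which holds K10 and DE27 (-3.02, adjusted p = 0.0176). These 2 settings ended the calls of 22 and 30 of the 74 named genes that passed. Whichever animal was left out, FKBP5 did not pass (adjusted p from 0.0530 to 0.207). DDIT4, an inhibitor of mTOR signalling, had a difference of -0.99 without overlap of the groups (adjusted p = 0.0788; 0.0491 with slides as blocks). TSC22D3 (-0.59, adjusted p = 0.271), KLF9 (-0.50, adjusted p = 0.166), KLF15 (-1.06, adjusted p = 0.394) and PDK4 (0.16, adjusted p = 0.946) did not pass. With slides as blocks KLF15 passed (-0.75, adjusted p = 0.0396) and the sign of PDK4 turned (-0.22). KLF15 was well above background on only 4 of 5 control and 3 of 5 treated arrays. Whichever animal was left out, KLF15 and DDIT4 did not pass (adjusted p from 0.153 to 0.591 and from 0.0782 to 0.164).

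The receptors of both hormones did not pass. The glucocorticoid receptor NR3C1 differed by 0.07 ± 0.19 (95% interval -0.36 to 0.49) and the oestrogen receptor ESR1 by -0.66 (adjusted p = 0.151). HSD11B1, which regenerates active cortisol, differed by 0.39 (adjusted p = 0.663). None of the 18 steroid receptors, thyroid receptors and cortisol enzymes tested passed (limma, 4 at an unadjusted p under 0.05). None of 9 oestrogen-responsive genes did either (3 at an unadjusted p under 0.05, 7 of 9 above 0, median 0.29). Over all probes, 2668 of 15438 were at an unadjusted p under 0.05 (limma).

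Most interferon-induced genes had higher levels in treated muscle. Of 21 genes of the interferon-gamma type, 19 had a positive difference (50.2% of all genes did), 6 rose (1.31% of all genes did) and 0 fell, with a median of 0.76. The mean deviation of this list from the control mean includes the 6 genes that rose. It lay between -0.20 and 0.23 log2 units in the control animals and between 0.84 and 0.92 in the treated animals, without overlap. IDO1, which degrades tryptophan, measured 5.23, 6.56, 5.53, 7.16 and 6.04 in control and 9.12, 7.98, 8.45, 8.62 and 8.17 in treated animals. All treated values lay above all control values, a 5.15-fold difference (2.36 ± 0.36, adjusted p = 0.0111).

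WARS1, the tryptophanyl-tRNA synthetase and a classical interferon-gamma target, measured 9.07, 9.78, 9.21, 9.2 and 9.35 in control and 11.18, 10.62, 10.78, 11.16 and 10.46 in treated animals. It was 2.87-fold higher without overlap (1.52 ± 0.19, adjusted p = 0.00473). The guanylate-binding proteins GBP4 (1.71 ± 0.29, adjusted p = 0.0173) and GBP1 (2.17 ± 0.50, adjusted p = 0.0486) rose, GBP1 with K6 (8.52) inside the treated range and with another probe that did not pass (1.5, adjusted p = 0.144). The immunoproteasome subunits PSMB9 (1.27 ± 0.16, adjusted p = 0.00402) and PSMB8 (0.90 ± 0.14, adjusted p = 0.0130) rose too, in every treated animal above every control animal. GBP1 lost its call without each animal except K6 (adjusted p up to 0.116). The transcription factor IRF1 (1.55 ± 0.40, adjusted p = 0.0684) did not pass.

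Of 24 genes of the type I interferon response, 22 had a positive difference, with 2 that rose, 0 that fell and a median of 0.75. IFIT3, an antiviral protein, was not well above background in any control animal and measured 5.29, 5.73, 4.34, 5.62 and 4.72 in treated animals. It was at least 3.09-fold higher (adjusted p = 0.00281), and under normexp background correction the difference was 0.73 (adjusted p = 0.0335). At day 0 only treated arrays counted towards the testing of IFIT3. Its adjusted p of 0.00281 belongs to a fitted difference that includes control signals not well above background, and does not test the bound. UBA7, the activating enzyme for the ubiquitin-like protein ISG15, rose by 1.15 ± 0.22 (adjusted p = 0.0242), and ISG15 itself, at 1.61 ± 0.40, did not pass (adjusted p = 0.0637). The mean deviation of this list overlapped between groups, since K6 lay at 0.53 and the treated animals between 0.50 and 1.19. Between 1 and 8 of these genes passed when single animals were left out, and UBA7 lost its call without K8, K9, K10 or DE31 (adjusted p up to 0.0686).

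Of 30 antigen presentation genes, 3 rose and 0 fell, with a median of 0.19. They were PSMB8, PSMB9 and the class II chaperone BOLA-DMB (0.76 ± 0.14, adjusted p = 0.0243; lost without K8, K9, DE29 or DE32, up to 0.0730). Among 25 chemokines and receptors, CCL2 and the eosinophil chemokine CCL24 (1.85 ± 0.35, adjusted p = 0.0247) rose and CXCL14 fell (-1.51 ± 0.30, adjusted p = 0.0271), with a median of 0.18. CCL24 lost its call without K9, K10, DE29, DE30 or DE32 (adjusted p up to 0.0692), and CXCL14 without K3, K8, K9, DE29 or DE30 (up to 0.0751). In the NF-kB pathway, RELT rose and NFKBIA fell among 24 genes, and none of 21 complement genes passed (4 at an unadjusted p under 0.05).

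Marker genes of immune cells are given beside these groups. None of 16 macrophage and monocyte markers passed (2 at an unadjusted p under 0.05, 13 above 0, median 0.21), and their mean level ranged from 6.54 to 7.89 in control and from 6.98 to 7.86 in treated animals. None of 10 T and NK cell markers (median -0.32, levels of 4.69 to 6.28 against 4.80 to 5.62), 5 B and plasma cell markers or 8 granulocyte and mast cell markers passed, and at an unadjusted p under 0.05 these lists had 0, 0 and 1. Of the T and NK cell list, 11 of 21 genes were not tested because they were absent from the array or too dim. Their part in the immune gene differences was not tested.

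Most genes for the uptake and oxidation of fatty acids had higher levels in treated muscle. Of 34 tested, 32 had a positive difference (50.2% of all genes did), 5 rose (1.31% of all genes did) and 0 fell, and the median was 0.48. In 12 of the 34, every treated animal lay above every control animal, against 3.13% of all genes. FABP3, the fatty acid carrier of muscle, measured 13.45, 13.79, 13.80, 13.18 and 12.22 in control and 14.58, 14.66, 15.58, 14.90 and 14.12 in treated animals. It was 2.79-fold higher without overlap (1.48 ± 0.34, adjusted p = 0.0478).

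MLYCD, which removes the malonyl-CoA that blocks fatty acid entry into mitochondria, measured 10.72, 10.19, 11.07, 10.50 and 11.28 in control and 11.73, 11.70, 11.77, 12.33 and 12.28 in treated animals, without overlap (1.21 ± 0.23, adjusted p = 0.0242). The acyl-CoA synthetase ACSL1 (0.87 ± 0.17, adjusted p = 0.0262), the isomerase ECI1 (0.75 ± 0.13, adjusted p = 0.0163) and the trifunctional protein subunit HADHA (0.65 ± 0.15, adjusted p = 0.0480) rose as well. Carnitine transfer genes had positive differences that did not pass: CPT1A 1.49 ± 0.35 (adjusted p = 0.0523), CPT1B 0.79 ± 0.20 (0.0662) and CPT2 0.64 ± 0.16 (0.0606). Without single animals between 1 and 6 genes of this list passed, and without K10, DE27 and DE32 1 did. FABP3 lost its call without each animal except DE32 (adjusted p up to 0.117), HADHA without each except K10 (up to 0.130), ACSL1 without K6, K8, K9, DE29, DE31 or DE32 (up to 0.0762) and MLYCD without K9, DE31 or DE32 (up to 0.0692).

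Of 24 genes for triglyceride synthesis and lipid droplets, 20 had a positive difference, 3 rose and 0 fell, with a median of 0.32. They were DGAT2, the lipid droplet coat protein PLIN2 and CIDEA, a droplet fusion protein. PLIN2 measured 7.42, 7.23, 6.95, 7.33 and 7.44 in control and 8.87, 8.19, 8.10, 8.31 and 8.34 in treated animals, without overlap (1.09 ± 0.17, adjusted p = 0.0134). CIDEA rose by 0.94 ± 0.16 (adjusted p = 0.0155), and the hormone-sensitive lipase LIPE, at 1.16 ± 0.32, did not pass (adjusted p = 0.0846). Among 27 genes of fatty acid and cholesterol synthesis, the glucose-sensing transcription factor MLXIPL rose (1.54 ± 0.24, adjusted p = 0.0134), 0 fell, and the median was 0.01.

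Adipocyte markers are given beside these genes. CIDEA was the 1 of 15 that passed, 13 were above 0, and the median was 0.33. Their mean level ranged from 7.13 to 8.28 in control and from 7.18 to 8.52 in treated animals, and within slide 6 the median was -0.24. CIDEA and LIPE belong to both lists, and the part of fat cells in the lipid gene differences was not tested.

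Enzymes of pyruvate oxidation and the TCA cycle feed the respiratory chain. Of 24 tested, 19 had a positive difference, 4 rose and 0 fell, with a median of 0.43. CS, citrate synthase, measured 14.54, 14.84, 14.75, 14.79 and 14.53 in control and 15.47, 15.28, 15.26, 15.42 and 15.27 in treated animals. The groups did not overlap, and CS was 1.57-fold higher (0.65 ± 0.12, adjusted p = 0.0230).

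The pyruvate dehydrogenase subunit DLAT (0.73 ± 0.15, adjusted p = 0.0306), the isocitrate dehydrogenase subunit IDH3B (0.69 ± 0.13, adjusted p = 0.0212) and the succinate dehydrogenase subunit SDHA (0.59 ± 0.12, adjusted p = 0.0325) rose. A second probe of IDH3B gave 0.11 ± 0.14 (adjusted p = 0.729), so that its probes disagree. Without single animals 0 to 4 of these genes passed. CS lost its call without K9, DE29 or DE31 (adjusted p up to 0.0548), IDH3B without K9 or DE29 (up to 0.0673), DLAT without each animal except K6, DE27 and DE30 (up to 0.0858), and SDHA without each except K6 and DE27 (up to 0.0811).

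Of the nuclear-encoded genes of oxidative phosphorylation, 69 of 80 had a positive difference, with a median of 0.24, 2 that rose and 0 that fell. SDHA and the complex I subunit NDUFV1 (0.55 ± 0.12, adjusted p = 0.0439; lost without each animal except K3, up to 0.117) were the genes that passed, and 0 to 1 passed without single animals. The mean level of this list ranged from 13.85 to 14.47 in control and from 14.08 to 14.61 in treated animals, so the groups overlapped. None of 13 mitochondrially encoded genes passed (1 at an unadjusted p under 0.05), and their median of -0.08 became 0.10 under quantile scaling. PPARGC1A, the coactivator of mitochondrial genes, had a difference of 1.64 ± 0.53 that did not pass (adjusted p = 0.137).

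Of 35 genes of glycolysis and glycogen metabolism, 1 fell, 0 rose and the median was -0.11. PFKFB4, which sets the level of the glycolysis activator fructose 2,6-bisphosphate, measured 12.95, 13.27, 12.42, 14.28 and 14.02 in control and 12.37, 11.27, 9.53, 11.42 and 10.97 in treated animals. The groups met at K8 and DE27, which were 0.06 apart, and the difference was -2.28 ± 0.50 (4.84-fold lower, adjusted p = 0.0418). PFKFB4 lost its call without each animal except K8 and DE27 (adjusted p up to 0.107).

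**Figure D4:**
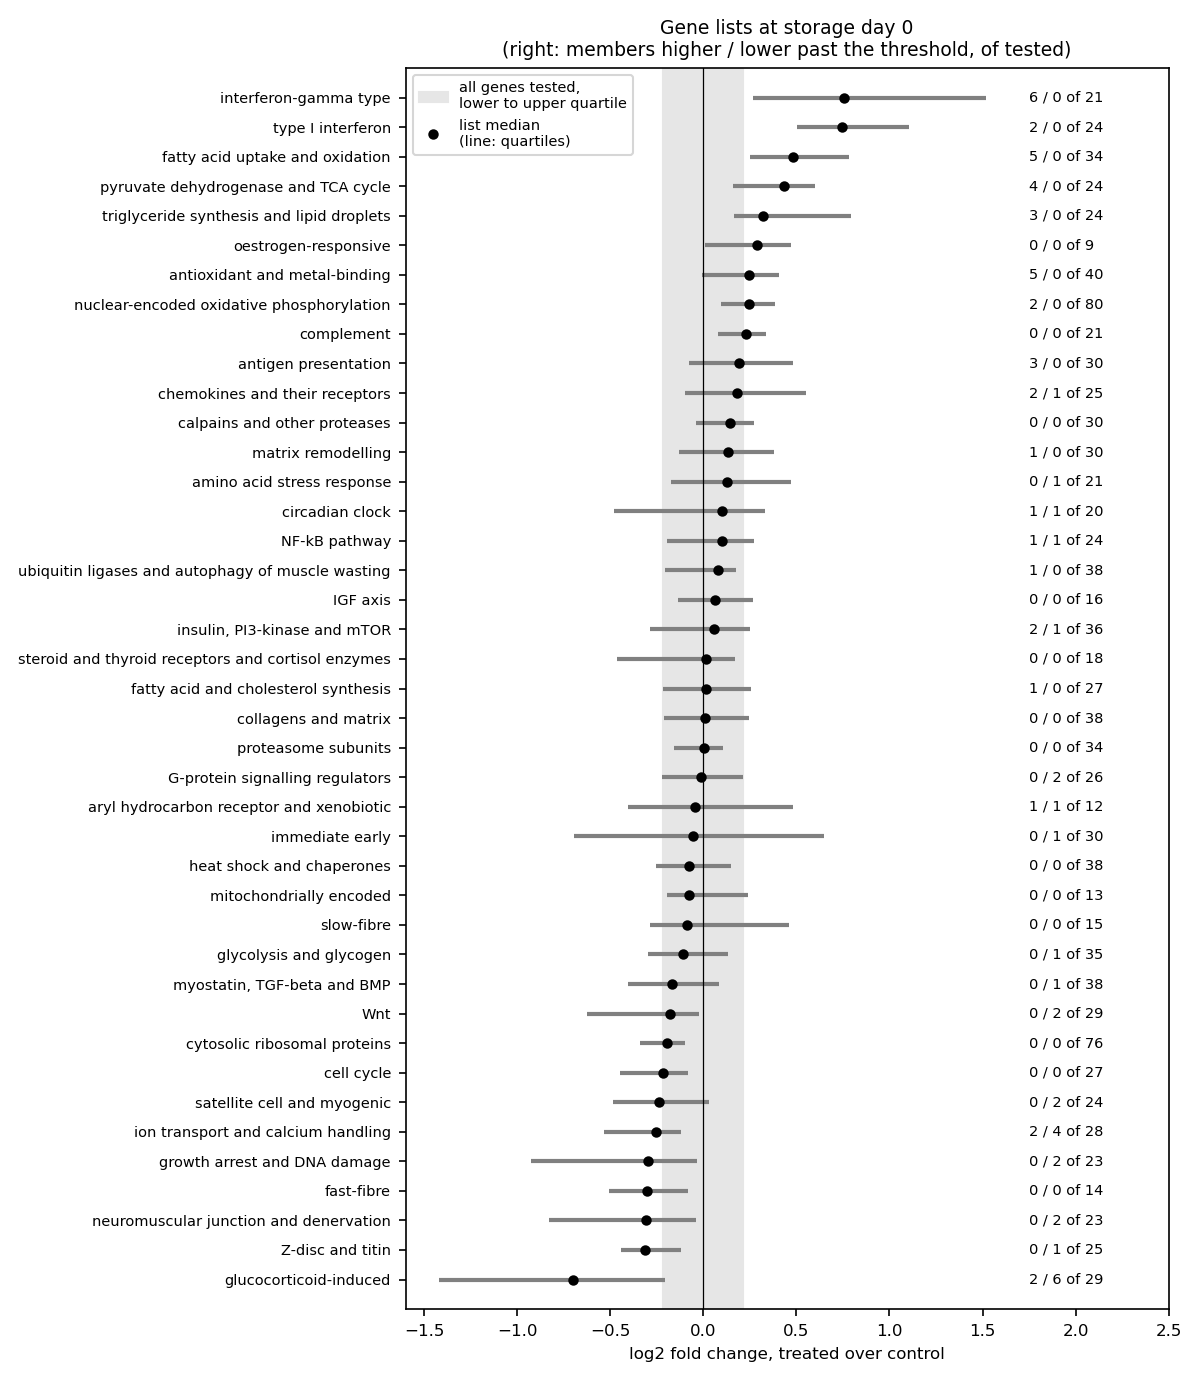
Median treated minus control difference of each gene list at day 0, in log2 units on the horizontal axis, with lines from the lower to the upper quartile of its genes, counts of genes that passed at the right and a grey band for the quartiles of all genes. The interferon lists (0.76 and 0.75), fatty acid oxidation (0.48) and the TCA cycle (0.43) have the highest medians among the process lists, and glucocorticoid-induced genes (-0.70) the lowest.

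Of the main ubiquitin ligases of muscle wasting, 1 rose. FBXO32, the ubiquitin ligase atrogin-1, measured 13.53, 12.94, 12.81, 13.55 and 13.37 in control and 14.41, 14.78, 14.32, 13.93 and 14.52 in treated animals. It was 2.23-fold higher without overlap (1.15 ± 0.20, adjusted p = 0.0184) and passed without each animal in turn, but not without slide 6 (adjusted p = 0.0573) or without K10, DE27 and DE32 (0.107). TRIM63, the ligase MuRF1, measured 14.52, 14.17, 14.17, 14.65 and 14.98 in control and 13.72, 14.92, 14.43, 13.85 and 14.61 in treated animals. These groups overlapped, and the difference of -0.19 ± 0.26 did not pass (adjusted p = 0.757; 95% interval -0.76 to 0.37). FBXO32 was the 1 of 38 ubiquitin ligase and autophagy genes that passed (median 0.08), and none of 34 proteasome subunits (median 0.00) or 30 calpains and other proteases (median 0.14) did, with 0 and 5 at an unadjusted p under 0.05.

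On the side of growth, myostatin (MSTN), the inhibitor of muscle mass, measured 7.96, 7.55, 6.55, 7.53 and 8.09 in control and 6.74, 5.52, 5.92, 4.46 and 6.72 in treated animals. K8 lay within the treated range and DE31 was lowest. The difference of -1.66 ± 0.44 did not pass (adjusted p = 0.0783), although it did with slides as blocks (-1.85, adjusted p = 0.0357). Whichever animal was left out, MSTN did not pass (adjusted p from 0.0627 to 0.165). GDF10 was the 1 of 38 myostatin, TGF-beta and BMP genes that passed (median -0.17). IGF1 differed by 0.36 (adjusted p = 0.390), and none of 16 genes of the IGF axis passed (3 at an unadjusted p under 0.05). In the insulin, PI3-kinase and mTOR list, IRS2 and TRIB2, a pseudokinase that binds AKT (1.03 ± 0.16, adjusted p = 0.0113), rose and PIK3R1 fell among 36 genes, with a median of 0.06. Cytosolic ribosomal protein genes had 0 of 76 that passed (8 at an unadjusted p under 0.05), with 68 below 0 and a median of -0.19.

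Genes of the neuromuscular junction build the contact between motor nerve and fibre. Of 23 tested, 19 had a negative difference (49.8% of all genes were at 0 or below), 2 fell (1.09% of all genes did) and 0 rose, with a median of -0.31. The mean deviation of this list, which includes the 2 genes that fell, lay between -0.16 and 0.16 in control animals. In treated animals it lay between -0.71 and -0.41, without overlap. CHRNG, the acetylcholine receptor subunit of fetal and denervated muscle, measured 7.63, 8.5, 7.74, 8.24 and 8.51 in control and 5.90, 5.68, 6.98, 5.44 and 6.50 in treated animals. It was 4.07-fold lower (-2.03 ± 0.31, adjusted p = 0.0111). HDAC9, a deacetylase that responds to nerve activity, was lower by -1.10 ± 0.22 (adjusted p = 0.0311; lost without each animal except K6, K8 and DE27, up to 0.0858). Nerve and Schwann cell markers, given beside them, had 0 of 13 that passed (3 at an unadjusted p under 0.05), 10 below 0 and a median of -0.44, with mean levels of 7.43 to 8.20 in control and 6.95 to 7.96 in treated animals. Their part in these differences was not tested.

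Among 24 satellite cell and myogenic genes, HES6 and the cadherin CDH15 fell and 0 rose, with a median of -0.24. CDH15, which holds satellite cells to their fibre, measured 11.40, 11.30, 10.87, 11.40 and 11.56 in control and 10.41, 10.53, 10.85, 10.71 and 10.54 in treated animals. The groups met at K8 and DE30, and the difference was -0.69 ± 0.16 (adjusted p = 0.0460; lost without each animal except K8, up to 0.121). CDH15 was also the 1 of 8 satellite cell markers that passed, and all 8 had a negative difference (median -0.46, with mean levels of 8.91 to 9.33 in control and 8.18 to 9.09 in treated animals). The part of satellite cell number was not tested.

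SRF, the transcription factor that drives contractile genes, measured 12.85, 12.68, 12.81, 12.67 and 12.87 in control and 11.85, 11.70, 12.15, 11.44 and 11.83 in treated animals. It was 1.98-fold lower without overlap (-0.98 ± 0.15, adjusted p = 0.0108). PDLIM3, a protein of the Z-disc, where thin filaments of neighbouring sarcomeres are anchored, was lower by -1.15 ± 0.21 (adjusted p = 0.0206; 0.0548 without K9). It was the 1 of 25 Z-disc genes that passed, with 21 below 0 and a median of -0.32.

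JPH2, which holds the calcium store against the cell membrane, measured 12.16, 12.43, 11.70, 12.15 and 12.15 in control and 10.92, 10.85, 11.39, 10.90 and 10.79 in treated animals. It was 2.22-fold lower without overlap (-1.15 ± 0.17, adjusted p = 0.0104). In the list of ion transport and calcium handling, 4 of 28 genes fell (DPP6, JPH2, the calcium pump ATP2B1 at -0.76 ± 0.17 and the kinase CAMK2A at -0.70 ± 0.14) and 2 rose (the bicarbonate transporter SLC4A4 at 1.81 ± 0.20 and the potassium channel KCNJ2 at 1.03 ± 0.20), against 1.09% and 1.31% of all genes. ATP2B1 lost its call without each animal except K8 and DE31 (adjusted p up to 0.110), CAMK2A without each except DE29 (up to 0.0753) and KCNJ2 without K6, K8, K10, DE27, DE30 or DE31 (up to 0.0595). None of 14 fast-fibre genes (median -0.30), 15 slow-fibre genes (median -0.09, 0.09 under quantile scaling) or 13 fibre markers (median -0.17) passed, with 1, 5 and 4 at an unadjusted p under 0.05.

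None of 38 collagen and matrix genes passed (3 at an unadjusted p under 0.05, median 0.01), and among 30 genes of matrix remodelling the stromelysin MMP11 rose (1.23 ± 0.28, adjusted p = 0.0460; lost without each animal except DE32, up to 0.0928) and 0 fell. None of 17 fibroblast markers (median 0.02) or 16 smooth muscle and pericyte markers (median 0.14) passed, with 0 and 5 at an unadjusted p under 0.05. In the Wnt list, 2 of 29 genes fell and 0 rose, with a median of -0.18. DKK1, a secreted Wnt inhibitor, measured 7.09, 6.41, 6.53, 6.81 and 6.75 in control and 4.43, 4.41, 5.61, 5.28 and 4.98 in treated animals, without overlap (-1.78 ± 0.25, adjusted p = 0.00824; -0.95 under normexp background correction, 0.00523). WNT4 was lower by -1.19 ± 0.23 (adjusted p = 0.0278; -0.41 under normexp, 0.143; lost without K3, K6, K8, K9, DE29, DE30 or DE31, up to 0.0686).

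Endothelial markers had 1 of 21 that passed, 17 above 0 and a median of 0.23. Their mean level, which includes the marker that passed, was 9.46 to 9.81 in control and 9.86 to 9.96 in treated animals, a narrow gap. The marker that passed was FABP5, a fatty acid carrier of capillary endothelium, which measured 10.63, 10.40, 10.05, 10.80 and 10.62 in control and 11.82, 12.16, 11.89, 12.22 and 12.24 in treated animals. It was 2.96-fold higher without overlap (1.57 ± 0.17, adjusted p = 0.00251). Whether the other endothelial markers separate the groups without FABP5 was not tested. The members of this list were chosen with earlier results of these data known, so the call of FABP5 is no independent support for it. None of 6 red cell and platelet markers passed (0 at an unadjusted p under 0.05, median 0.38).

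**Figure D5:**
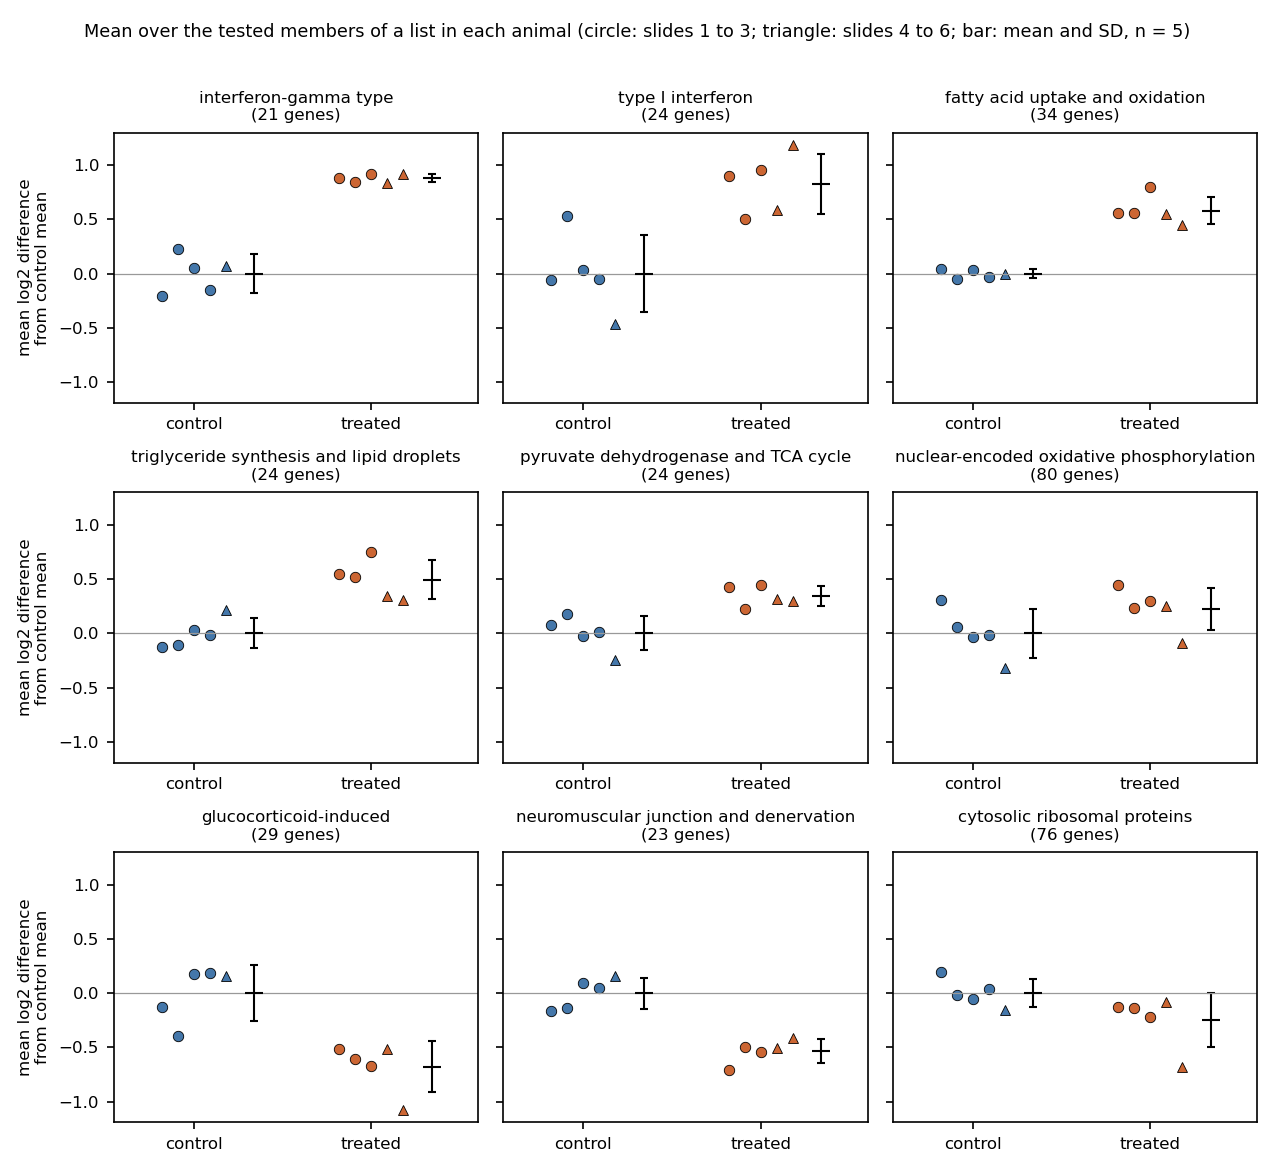
Mean deviation of 9 gene lists from the control mean in each of the 10 animals at day 0, in log2 units, with 1 point per animal, circles for slides 1 to 3 and triangles for slides 5 and 6. The interferon-gamma list separates control (-0.20 to 0.23) from treated animals (0.84 to 0.92). The fatty acid, triglyceride and TCA cycle lists also separate the groups, as do the neuromuscular and glucocorticoid-induced lists in the opposite direction. The type I interferon, oxidative phosphorylation and ribosomal protein lists overlap. Each mean includes the genes of its list that passed.

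Of 40 antioxidant and metal-binding genes, 5 rose and 0 fell, with a median of 0.25. HMOX1, haem oxygenase, measured 10.78, 9.77, 10.47, 9.94 and 10.90 in control and 11.22, 11.98, 11.60, 11.47 and 11.84 in treated animals, without overlap (1.25 ± 0.25, adjusted p = 0.0271). The metallothionein MT3 (1.55 ± 0.28, adjusted p = 0.0198), the glutaredoxin GLRX (0.96 ± 0.16, adjusted p = 0.0155; 0.39 under normexp background correction, 0.107), the peroxiredoxin PRDX2 (0.78 ± 0.18, adjusted p = 0.0468) and the glutathione peroxidase GPX1 (0.75 ± 0.17, adjusted p = 0.0455) also rose. Between 1 and 5 of them passed without single animals. HMOX1 lost its call without K8, K9, DE29, DE30, DE31 or DE32 (adjusted p up to 0.0746), MT3 without K9 (0.0555), PRDX2 without each animal except K3 (up to 0.125) and GPX1 without each except K10 and DE27 (up to 0.120).

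In the aryl hydrocarbon receptor list, CYP1A1 fell and the receptor AHR rose among 12 genes. AHR measured 8.56, 8.17, 8.07, 8.05 and 7.91 in control and 8.96, 9.10, 8.51, 8.90 and 8.84 in treated animals, with K3 above DE30 (0.71 ± 0.16, adjusted p = 0.0476; lost without each animal except K3 and DE30, up to 0.125). Among 20 clock genes, PER1 fell and the repressor BHLHE40 rose (1.5 ± 0.30, adjusted p = 0.0291), with a median of 0.10. PER2 (-1.31 ± 0.34, adjusted p = 0.0696) and ARNTL (0.77 ± 0.22, adjusted p = 0.0895) did not pass. BHLHE40 lost its call without K3, K8, K10, DE27, DE29, DE30 or DE32 (adjusted p up to 0.0740).

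Of 23 growth arrest and DNA damage genes, 2 fell and 0 rose, with a median of -0.29. GADD45G, a stress-induced growth arrest protein, measured 13.14, 12.89, 14.90, 14.80 and 15.53 in control and 12.36, 11.42, 12.58, 12.16 and 11.13 in treated animals, without overlap (-2.32 ± 0.52, adjusted p = 0.0433; lost without each animal except K3 and K6, up to 0.113). SESN1 was the other. The related GADD45A (-2.27 ± 0.55, adjusted p = 0.0569) and the cell cycle inhibitor CDKN1A (-0.97 ± 0.25, adjusted p = 0.0738) did not pass, and none of 27 cell cycle genes did (0 at an unadjusted p under 0.05). Of 30 immediate early genes 1 fell and of 21 amino acid stress genes 1 fell, with medians of -0.06 and 0.13, and none of 38 heat shock and chaperone genes passed (3 at an unadjusted p under 0.05).

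The fit with slides as blocks ended the calls of ACSL1, AHR, ATP2B1, BOLA-DMB, C10H15orf48, CAMK2A, CCL24, CDH15, CEBPB, CS, GBP1, GPX1, HADHA, HDAC9, HMOX1, MLYCD, NDUFV1, PDLIM3, PFKFB4, PRDX2, SDHA and UBA7 (adjusted p from 0.0505 to 0.109). With the set of slides as a block, 0 of the 74 named genes lost their call. Without K10, DE27 and DE32, 24 still passed: ARMC12, BOLA-DMB, CCL2, DGAT2, FABP5, GLRX, GPX1, HES6, IFIT3, MLXIPL, PER1, PIK3R1, PLIN2, PSMB9, RBP7, RELT, RGS14, SLC25A25, SLC4A4, STXBP5L, TRIB2, WARS1, WNT4 and ZNF750. The other 50 had adjusted p from 0.0501 to 0.213, with 7 animals in that fit.

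After 14 days of storage, 11 probes (0.0713% of those tested) separated the same treated and control animals. The named genes were chosen for their difference at day 0. Of the 74 that passed there, 63 had a smaller difference at day 14, and 6 passed at both days. PER1 differed by -2.95 at day 14 (adjusted p = 0.0237), RGS1 by -3.66 (0.0237), CYP1A1 by -4.03 (0.0372), HES6 by -2.76 (0.0372), IFIT3 by 2.78 (0.0372) and WARS1 by 1.48 (0.0372). The values of HES6 and IFIT3 are fitted differences of dim probes, for which only bounds are given at day 0. Other genes had smaller differences at day 14 than at day 0, such as DGAT2 (1.97), IRS2 (0.05) and DIO2 (0.62). The test of the difference between days, on each animal's change, called 0 of 15438 probes (0%; limma, 583 at an unadjusted p under 0.05), so no gene was shown to differ between days.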

How the data were processed

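Per the labels, cyanine 3 marked the total RNA of each muscle sample, which went on an Agilent bovine array of design 015354, 1 sample an array. Per the file headers, spots were quantified with Feature Extraction 9.5.1.1. The values used are the processed signal, a linear intensity after background subtraction and detrending, as deposited by the authors. The deposited files also mark outlier spots and spots well above background with 0 or 1, and these other columns served as filters. The authors also deposited a table of linear intensity values whose normalization is not given in the sources used here. The submitters' processing notes name R 2.11.1. The table was used as an alternative, and its arrays correlated with the processed signal with r from 0.995 to 0.999 (log2 values of the same array).

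Titles and characteristics gave each sample its treatment and day. A description field that gives day 0 for every control and day 14 for every treated sample was not used, and a shortened animal name in 1 title was read as DE31 by its number. After log2, the 75th percentile of every array was set to the mean of these percentiles. Over all 20 arrays 935 outlier spots and 1417 control spots per array were not used, and the values of a probe's spots were averaged. Of 21475 probes, 15438 were tested because at least 5 of the 20 arrays had them well above background, and 6037 were not. Matching the array's annotation to RefSeq's bovine genes (ARS-UCD2.0) gave names to 12373 tested probes and none to 3065. No genome position is given, and no sequence was used.

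Treated and control animals were compared by limma (version 3.58.1 in R 4.3.3, functions lmFit and eBayes), and p-values were adjusted by Benjamini-Hochberg over the probes tested, with 0.05 as threshold. Errors are SE of the fit unless marked SD. The labels do not say how animals were assigned or housed. Numbers of arrays limit the precision, since arrays give no counts. Named genes are the 12 largest changes per direction that passed, the members of 53 gene lists that passed (all where a list had up to 6, otherwise the 4 with the smallest p) and 14 hormone and muscle genes whatever their result, of which 1 is not reported here. CRISPLD2, genes named as not passing outside those 14, and the genes of the closing section were chosen after their values were seen. The members and lists were chosen with earlier results of these data known. Animals are not paired between treatments. Days were compared as each animal's difference. Alternatives covered scaling, background, filters, slide, scan session, animals left out and, added after the data were seen, the sets of slides. The fit was tested on simulated data.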

Additional observations from a re-analysis of the deposited data

Results flagged for a closer look

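In 11 of 174 groups of 5 animals, formed by the 87 named genes in control and in treated muscle, 1 animal lay far from the other 4 (Dixon's ratio above 0.71). Chance flags about 1 in 20 groups.

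FKBP5 had DE27 at 4.97, below the other treated animals at 8.56 to 8.86. KLF15 had K10 at 2.94, below the other control animals at 4.93 to 5.49. HES6 had K10 at 7.26, above the other control animals at 5.88 to 6.07, and TRIB2 had K10 at 9.48, below 9.88 to 10.0. K10 and DE27 shared slide 6, and the part of the slide in these values was not tested.

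NFKBIA and RGS1 both had K6 as the low control animal, at 12.01 against 13.03 to 13.37 and at 7.77 against 9.40 to 10.0. GDF10 had K8 at 7.38, above the other control animals at 4.39 to 5.20, and PRDX2 had K3 at 14.70, above 13.80 to 14.02. Among treated animals, DIO2 had DE32 at 8.26, below 9.36 to 9.80. ECI1 had DE29 at 11.76, below 12.09 to 12.20, and JPH2 had DE30 at 11.39, above 10.79 to 10.92.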

How the results depend on the processing

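Whichever animal was left out, 34 of the 74 named genes called at day 0 were still called, and 0 of the 74 turned direction under any alternative. The 74 were chosen for their difference on these same arrays, so a turn of direction was unlikely from the start. With the slide as a block 22 did not pass, without slide 6 30 did not, without slides 5 and 6 50 did not, and under normexp background correction 6 did not and 13 differences were over 1.5 times smaller. The 378 probes called (204 higher, 174 lower) became 230 (122 and 108) with no filter on dim probes, where more probes are tested. In a fit of all 20 arrays that pairs the days through a random replicate block for the animal, they became 201 (95 and 106), and 28 of the 74 named genes no longer passed. Leaving out slide 6 gave 217 (114 and 103), and leaving out slides 5 and 6 gave 100 (53 and 47), with fewer animals in both. Without single animals the count ranged from 135 to 311, with 75 to 169 higher and 60 to 156 lower, and K9 mattered most. The other scalings, filters and blocks gave 351 to 534 probes, and the treatment by storage day test called 0 probes in each alternative it was run for. The filter for probes above background on all day 0 arrays kept 65 of the 74 named genes, and 0 of the 65 lost their call. It could not judge the rest, which it left out.

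Genes that turned direction were ones that did not pass. NR3C1 was -0.063 without slides 5 and 6 and ranged from -0.070 (K8 left out) to 0.155 without single animals, with -0.021 without DE27. PDK4 was -0.22 with the slide, -0.13 with the scan session and -0.10 with the set of slides as a block, and ranged from -0.53 (K6 left out) to 0.63 (K10 left out) without single animals, with -0.096 without DE31. TRIM63 was 0.073 without slide 6 and 0.020 without slides 5 and 6. The cause was not tested. Genes near background, such as HES6, GDF10, STXBP5L and ARMC12 in treated animals, have only bounds.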

Other observations

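Further genes that passed at day 0 were picked after their values were seen. ACOX2, a peroxisomal oxidase of bile acid intermediates and branched fatty acids, was 1.80 ± 0.19 higher in treated muscle (limma adjusted p = 0.00221). Other genes of metabolism that rose were the acyl-CoA synthetase ACSL5 (1.20 ± 0.23, adjusted p = 0.0242), the mitochondrial deacetylase SIRT3 (0.93 ± 0.18, 0.0260), the haem synthesis enzyme ALAS1 (1.01 ± 0.15, 0.0107; 0.78 at its other probe, 0.0674) and PFKFB2 (1.22 ± 0.22, 0.0210), a relative of PFKFB4. Genes of vessels and secreted factors rose as well: the endothelin receptor EDNRA (1.08 ± 0.19, 0.0182), the hypoxia factor EPAS1 (0.74 ± 0.16, 0.0342), the growth factor VEGFA with overlapping groups (1.25 ± 0.26, 0.0335), the death ligand TNFSF10 (1.54 ± 0.27, 0.0182) and prolactin, PRL (1.52 ± 0.23, 0.0106).

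Regulators of transcription and signalling were among the genes that fell. They included ARID5B (-1.68 ± 0.24, adjusted p = 0.00848; other probes -1.34, 0.0129, and -0.85, 0.440), SNAI2 (-1.85 ± 0.32, 0.0182), KLF13 (-1.41 ± 0.23, 0.0137; other probe -0.55, 0.461) and MAF (-1.21 ± 0.21, 0.0182). The arrestin-like proteins ARRDC3 (-1.62 ± 0.19, 0.00267) and ARRDC4 (-0.89 ± 0.16, 0.0212), the dexamethasone-induced RAS protein RASD1 (-1.37 ± 0.23, 0.0163), the prostaglandin-degrading enzyme HPGD (-1.73 ± 0.24, 0.00848) and MEGF10, a receptor of satellite cells (-1.26 ± 0.21, 0.0155), fell too.

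Several large differences did not pass the test and had wide spreads between animals. ARG2, a mitochondrial arginase, differed by 3.18 ± 0.86 (adjusted p = 0.0824), NR4A3 by 2.5 ± 0.75 (0.113) and ANGPTL4 by 2.42 ± 0.74 (0.118). SLC16A7, a monocarboxylate transporter, differed by 2.21 ± 0.53 with groups that did not overlap (0.0555).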
